A study of Rattus norvegicus with 196 samples.

Results

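Trim28 and Setdb1 are 2 of the 29188 rat transcripts whose reads were counted in these samples. They were picked by gene name among the 1845 transcripts that the study names with an Ensembl identifier, ENSRNOT00000029996 for Trim28 and ENSRNOT00000028709 for Setdb1. TRIM28 is a corepressor without DNA binding of its own. KRAB zinc finger proteins bring it to their target sequences, where it binds HP1 proteins and recruits SETDB1, the methyltransferase that writes trimethylated H3K9. In many cell types the complex keeps transposable elements, imprinted loci and selected genes in a silent state, and SUMO attached to TRIM28 helps it to hold SETDB1 and the NuRD remodeller.

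Bulk RNA-seq was carried out on tissue punches of 25 brain regions from male Long-Evans rats that were 2 months old when treatment began. FT rats took fluoxetine, a serotonin reuptake inhibitor, in their drinking water at 18 mg/kg body weight per day for 6 weeks, and Sham rats took water alone. There were 98 FT and 98 Sham samples, each a pool of punches from 10 of the 40 animals in its treatment group, and the replicates carry the numbers 1, 3, 4 and 5. Samples of both treatments that carry the same number had been processed together, and they were compared as pairs. Of 96 complete pairs, 95 were used, since the study dropped outlying CGC replicates without giving their number and the pair of replicate 1 was taken to be meant. With all 8 CGC samples the regions called below were the same. A pooled sample hides the spread between animals, so p-values measure the spread between pools. The FT group of mPoA and the Sham group of Arc hold replicates 4 and 5 alone.

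Library totals ran from 4586 to 50893913 counts with a median of 11921178. Replicate 3 was the shallowest, with a median of 5759060 counts in Sham and 6733738 in FT, and its 50 most abundant transcripts took a median of 68.6% of the counts in Sham and 67.7% in FT, against 28.2% to 37.5% in the other replicate numbers. Libraries under 1000000 counts were found in 2 cases, the Sham replicate 3 samples of Nts, with 4586 counts and no read of either gene, and of ILC, with no read of Setdb1. For Trim28 and Setdb1, pair counts, means and ranks that rest on their pairs are given with and without them. Levels are given as CPM, the counts per 1000000 counts of the library after TMM scaling. Region markers were highest where the labels place them for Slc6a3 and Th in VTA, with LC second for Th, and for DRD2 and Adora2a in NAcC and NAcSh. PVN samples had little of the peptide transcripts Avp, at a Sham mean of 1.83 CPM, and Oxt, at 5.85 CPM, and these were highest in VMH and mPoA, respectively. Hcrt, the orexin gene of the lateral hypothalamus, was higher in VMH, at 219 CPM, than in LH, at 152, and the cholinergic marker Slc5a7 was higher in PVN, at 95.5 CPM, than in MS, at 53.7. For these markers the data go against the labels, and regions are called by their labels throughout. CPM are not divided by transcript length, so the 2 genes' levels were not compared with each other.

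The promoter sequences of both genes are shown because they lie at the annotated start of each gene and differ in make-up. Whether they bear on the level of either gene in these samples was not tested. They come from RefSeq on the rat build GRCr8 and hold 300 bases that end shortly after the annotated start, 5′ to 3′ on the gene's strand. Capitals mark matches, on either strand, to the motifs searched, which were the GC box GGGCGG, NRF1 (GCGC and TGCGC with 1 base of any kind between them), ETS CCGGAAG, a YY1-like CCATNTTG, CRE TGACGTCA, CCAAT and TATAAA. Trim28 lies on the plus strand at chr1:82724645-82724944 and Setdb1 on the minus strand at chr2:185618933-185619232.
Trim28: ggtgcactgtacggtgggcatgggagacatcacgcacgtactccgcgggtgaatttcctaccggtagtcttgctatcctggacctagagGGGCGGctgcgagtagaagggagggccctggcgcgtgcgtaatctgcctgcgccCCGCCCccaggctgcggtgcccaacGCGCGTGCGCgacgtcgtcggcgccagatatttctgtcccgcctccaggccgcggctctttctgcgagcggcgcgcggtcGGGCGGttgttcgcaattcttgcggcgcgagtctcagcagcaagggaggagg
Setdb1: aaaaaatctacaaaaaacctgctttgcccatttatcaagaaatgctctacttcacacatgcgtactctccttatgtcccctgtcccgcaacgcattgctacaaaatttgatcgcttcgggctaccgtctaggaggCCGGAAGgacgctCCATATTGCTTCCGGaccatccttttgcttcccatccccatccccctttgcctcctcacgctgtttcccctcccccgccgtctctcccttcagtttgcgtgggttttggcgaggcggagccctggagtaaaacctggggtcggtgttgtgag

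The Trim28 promoter held 37 CG pairs in 300 bases, a number that 4.78% of 33469 promoters of this length reach or exceed, and 67% of its bases were G or C. It held 3 GC boxes, which 33.1% of promoters contain, and 1 NRF1 match, which 4.25% contain. The Setdb1 promoter held 16 CG pairs, reached or exceeded by 30.5% of promoters, and 53.3% G or C. It held 2 ETS matches, found in 8.75% of promoters, that flank 1 YY1-like match, found in 5.83%, the second ETS match on the opposite strand and joined to the YY1-like letters. Neither window held the CRE, CCAAT or TATAAA letters. In the same RefSeq annotation Trim28 overlaps Chmp2a, Setdb1 overlaps Cers2 and a transcribed pseudogene Setdb1-ps1 exists. The study used a stranded library kit, but the strand setting of the counting is not given in the sources used here. The counts of both genes are therefore uncertain by any reads shared with the overlapping genes. Those of Setdb1 are also uncertain by any reads that match the pseudogene.

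Trim28 was higher in FT than in Sham under every replicate number, whereas the rise of Setdb1 lay in replicates 4 and 5. In Sham libraries the median Trim28 level over regions was 93.7 CPM in replicate 1, 65.8 in replicate 3, 90.0 in replicate 4 and 87.8 in replicate 5. The corresponding FT medians were 139.6, 107, 243 and 228 CPM. The FT median thus stood above the Sham median in all 4 replicate numbers, with the wider gap in replicates 4 and 5. The median number of reads per library, in each replicate number and treatment, was at least 188.5 for Trim28 and 65 for Setdb1.

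For Setdb1, the Sham medians were 20.1, 22.2, 42.1 and 82.2 CPM in replicates 1, 3, 4 and 5. In FT they were 18.1, 21.5, 154 and 161 CPM. Replicates 1 and 3 therefore had nearly equal FT and Sham medians at a low level, and replicates 4 and 5 a higher level in both treatments. Every Setdb1 value of replicates 4 and 5 lay above every value of replicates 1 and 3 in 21 of 24 regions in Sham and in 24 of 24 in FT. For Trim28 this was so in 9 of 24 regions in Sham and 21 of 24 in FT. The share of all transcripts that separate in this way is not given, so these counts are a description only. Between the medians of these replicate numbers, Setdb1 was 2.78-fold higher in Sham and 7.93-fold in FT, which placed it at the 90.7th and 98.6th percentile of 17302 transcripts. The part of depth, which was lowest in replicate 3, and of the share of the most abundant transcripts in these shifts was not tested.

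**Figure D1:**
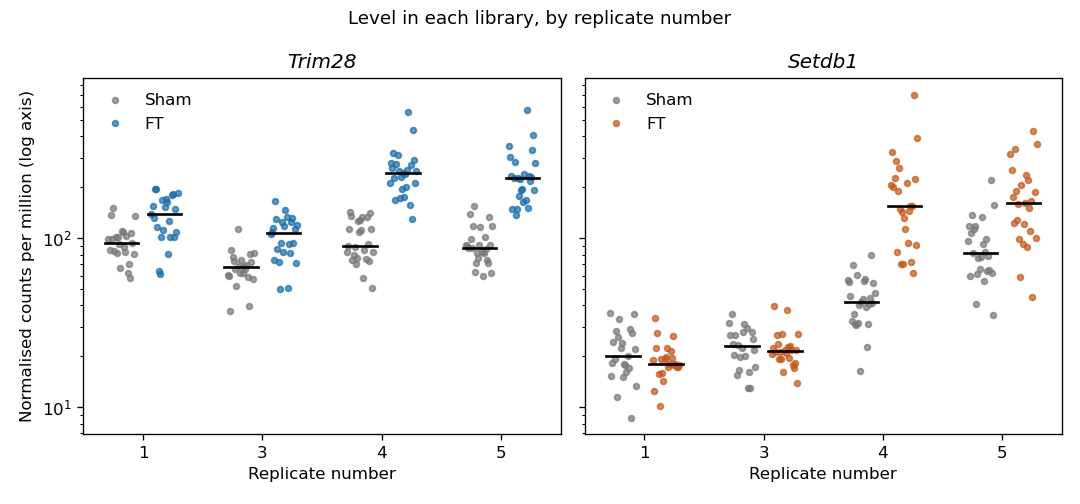
CPM of Trim28 (left) and Setdb1 (right) in each library on a log axis, by replicate number, with Sham in grey, FT in colour and black bars at the medians over regions. Libraries under 1000000 counts and the CGC pair of replicate 1 are not drawn. Trim28 sits higher in FT in all 4 replicate numbers, and Setdb1 is at about 20 CPM in both treatments of replicates 1 and 3 and rises to FT medians of 154 and 161 CPM in replicates 4 and 5.

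Within pairs, the log2 ratio of FT to Sham for Trim28 had a median over regions of 0.56 in replicate 1, 0.84 in replicate 3, 1.35 in replicate 4 and 1.43 in replicate 5. The Setdb1 medians were -0.041, 0.18, 1.91 and 1.08. Trim28 was higher in FT in 87 of 95 pairs and Setdb1 in 72. Both were higher in 68 pairs and both lower in 4. For Setdb1 the pairs with a higher FT value numbered 10 of 22 in replicate 1 and 14 of 23 in replicate 3, then 25 of 25 in replicate 4 and 23 of 25 in replicate 5. Without the 2 pairs that hold a library under 1000000 counts, Trim28 was higher in FT in 85 of 93 pairs and Setdb1 in 70, both were higher in 66 and both lower in 4, and Setdb1 in 12 of 21 in replicate 3.

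The mean paired log2 ratio over regions, averaged over the 4 replicate numbers, was 1.04 for Trim28, with an SD of 0.40 over the replicate numbers (n = 4). All 4 values were positive. In the two-sided exact permutation test over their signs, 2 of 16 sign patterns gave a mean at least this far from 0, the fewest that 4 values allow. For Setdb1 the mean was 0.84 with an SD of 0.83 (n = 4, exact permutation p = 0.25), and the value of replicate 1 was below 0. Without the pairs that hold a library under 1000000 counts, the Trim28 mean was 0.95 (again 2 of 16 sign patterns) and the Setdb1 mean 0.68 (exact permutation p = 0.375), and the replicate 3 mean of Setdb1 was 0.013 in place of 0.63. With FT and Sham means treated as unpaired, 4 against 4, the exact permutation p was 0.0286 for Trim28, the smallest this comparison allows, and 0.486 for Setdb1. This unpaired comparison sets aside that samples of the same replicate number had been processed together, so the paired test is the one that follows the design.

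Among the 17302 transcripts in the joint table, the mean ratio of Trim28 ranked at the 97.5th, 98.7th, 98.9th and 98.8th percentile in replicates 1, 3, 4 and 5, so its place near the top was shared by the replicate numbers. The mean ratio of Setdb1 ranked at the 46.9th, 86.5th, 99.7th and 96.2nd percentile, from the middle of all transcripts in replicate 1 to among the highest in replicate 4. Without the 2 shallow pairs, both of replicate 3, Trim28 ranked at the 98.3rd percentile in that replicate number and Setdb1 at the 55.1st, and the median over transcripts there was -0.028 in place of 0.23. These ranks describe the transcripts of one table and are no test. The difference between the ratios of the 2 genes averaged -0.20 on the log2 scale (SD 0.53, n = 4 replicate numbers), with Setdb1 below Trim28 in replicates 1, 3 and 5 and above it in replicate 4, and the exact permutation test gave p = 0.625. Without the shallow pairs the difference was -0.27 (exact permutation p = 0.5). Across pairs of the same replicate number, and without libraries under 1000000 counts, r between the 2 genes' ratios was 0.10 in replicate 1 (n = 22 regions), 0.12 in replicate 3 (n = 21), 0.31 in replicate 4 (n = 25) and 0.56 in replicate 5 (n = 25). Each such value compares ratios from shared libraries and is a description only.

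**Figure D2:**
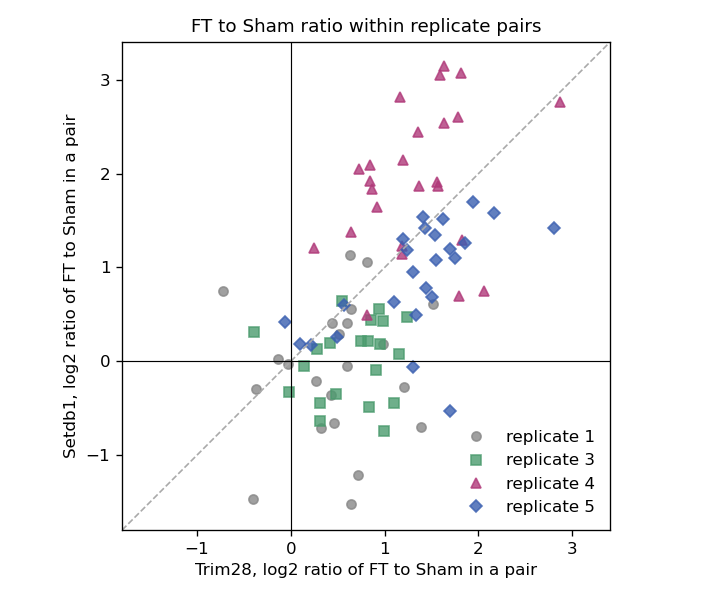
Log2 ratio of FT to Sham within each replicate pair for Trim28 (horizontal) and Setdb1 (vertical), 1 point per pair, with symbols by replicate number and the dashed line at equal ratios. The 2 pairs with a library under 1000000 counts are not drawn. Replicate 4 and 5 pairs lie mostly in the upper right, and replicate 1 and 3 pairs lie mostly to the right of 0 for Trim28 (17 of 22 and 19 of 21) and around 0 for Setdb1.

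Cell type markers were read beside these ratios. Of 6 neuronal markers 3 could be followed (Tubb3, Slc17a6 and Gad2), and their summed level ran from 134 to 2388 CPM in Sham and from 79.9 to 1627 CPM in FT. Its mean paired log2 ratio was -0.02, 0.16, -0.50 and -0.62 in replicates 1, 3, 4 and 5, lower in FT in the replicate numbers where Setdb1 was higher. Astrocyte markers, 2 of 7 (Slc7a10 and Gja1), had ratios of 0.23, 0.42, 0.41 and 0.34 and ran from 113 to 558 CPM in Sham and from 152 to 412 CPM in FT. Oligodendrocyte markers, 4 of 11, had ratios between -0.20 and 0.12, and microglial markers, 2 of 5, between -0.30 and 0.62, with summed levels from 57.7 to 1344 and from 0 to 89.3 CPM in Sham and from 54.3 to 1072 and from 17.5 to 135 CPM in FT. The choroid plexus marker Ttr, 1 of 3 listed, had ratios of -0.61, -0.44, -1.49 and -0.70 and was present in every library, from 1.88 to 69816 CPM in Sham and from 0.417 to 99066 CPM in FT. None of the 3 endothelial markers had an identifier. Ratios without the 2 shallow pairs of replicate 3 are not given for these markers. The part of these markers in the ratios of Trim28 and Setdb1 was not tested, and in bulk tissue fewer cells of a type and less RNA per cell cannot be told apart.

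Each region was then tested alone. Transcripts were called DEGs where their fitted level was at least 25% higher in either treatment than in the other, with an adjusted p of at most 0.1, from edgeR's quasi-likelihood test with the replicate number as a block and Benjamini-Hochberg adjustment over all transcripts of that region. By this rule Trim28 was higher in FT in 4 of 25 regions (mPoA, raphe, Arc and Nts) and Setdb1 in 2 (mPoA and Arc), and neither was lower in any region. Over all transcripts and regions, 1.01% of 334878 tests were called higher and 0.913% lower. Because the names come from transcripts that the study called in these same samples, these counts are not independent evidence of the direction. DESeq2 with the same block called Trim28 higher in 18 regions and Setdb1 in 9, where it called 2.58% of all tests higher and 1.75% lower. With no filter on low counts edgeR called Trim28 higher in 17 regions and Setdb1 in 7, where 1.77% of all tests were called higher and 1.5% lower.

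The log2FC was above 0 in 25 of 25 regions for both genes, as it was for 50.8% of all tests. It ran from 0.30 in InsularC to 1.76 in mPoA for Trim28 and from 0.15 in LH to 2.01 in mPoA for Setdb1, with medians of 1.02 and 0.74 and standard errors between 0.19 and 0.46 and between 0.16 and 0.66. In mPoA and Arc it rests on pairs of replicates 4 and 5 alone, the replicate numbers with the larger median ratios. Their values are therefore not directly comparable with those of the other regions, which also hold pairs of replicates 1 or 3. The unadjusted p was under 0.05 for Trim28 in 21 regions and for Setdb1 in 10, against 14% of all tests. Every FT sample lay above every Sham sample for Trim28 in 12 regions, 10 of them with 4 pairs, and for Setdb1 in 1, against 2.35% of all tests. The log2FC values of the 2 genes had r = 0.53 and rho = 0.16 over 25 regions that share libraries between genes, and Setdb1 had the larger value in 9.

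**Figure D3:**
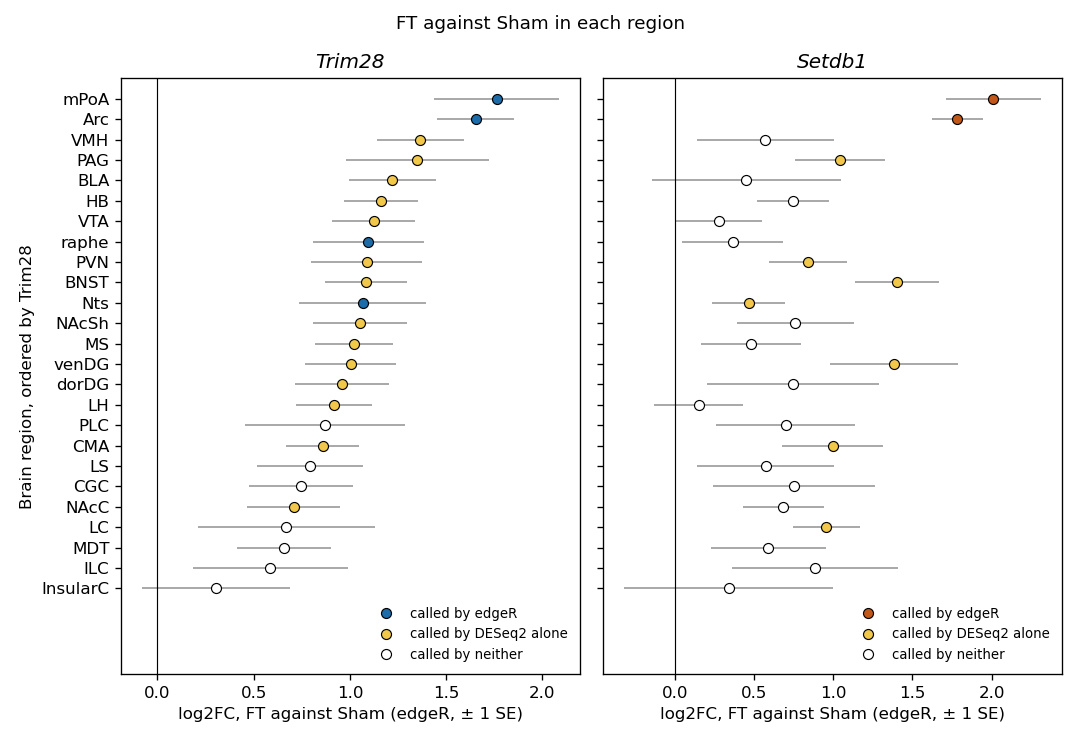
Log2 fold change of FT against Sham for Trim28 (left) and Setdb1 (right) in each of 25 regions, from edgeR, with bars of 1 standard error. Filled colour marks regions called by edgeR, yellow those called by DESeq2 alone and white those called by neither. All points lie above 0. The highest values of both genes are those of mPoA and Arc, whose pairs are of replicates 4 and 5 alone.

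In mPoA the Trim28 level was 289.6 and 409.7 CPM in FT replicates 4 and 5, against 93.7, 71.9, 113 and 90.8 CPM in Sham replicates 1, 3, 4 and 5. Setdb1 stood at 224 and 187 CPM in FT against 35.6, 25.2, 41.2 and 62.4 CPM in Sham. FT and Sham did not overlap for either gene. The log2FC was 1.76 ± 0.32 (SE) for Trim28 (edgeR adjusted p = 9.32e-05) and 2.01 ± 0.30 for Setdb1 (edgeR adjusted p = 2.41e-06), in a region where 4.85% of transcripts were called higher.

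In Arc, Trim28 was at 139.6, 106, 213 and 349 CPM in FT replicates 1, 3, 4 and 5 and at 82.6 and 90.7 CPM in Sham replicates 4 and 5. Setdb1 was at 19, 20.7, 206 and 315 CPM in FT and at 56.2 and 96.8 CPM in Sham. The groups did not overlap for Trim28, but for Setdb1 the unpaired FT replicates 1 and 3 fell below both Sham values. Only replicates 4 and 5 form pairs here, and they gave a log2FC of 1.65 ± 0.20 for Trim28 (edgeR adjusted p = 0.0154) and 1.78 ± 0.16 for Setdb1 (edgeR adjusted p = 0.0128), with 13.7% of transcripts called higher.

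The raphe, which holds the serotonin neurons that fluoxetine acts on, was called for Trim28 and not for Setdb1, a difference between the genes that was not tested there. Setdb1 stood at 17.2, 13.97, 91.1 and 100.2 CPM in FT replicates 1, 3, 4 and 5 and at 22.2, 21.9, 54.1 and 34.9 CPM in Sham. It was lower in FT in replicates 1 and 3 and higher in 4 and 5, and the groups overlapped. Its log2FC was 0.36 ± 0.32 (edgeR adjusted p = 0.537), against 1.10 ± 0.29 (edgeR adjusted p = 0.0797) for Trim28, which was higher in FT in 4 of 4 pairs. In the raphe 3.08% of transcripts were called higher.

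Nts was called for Trim28 with a log2FC of 1.07 ± 0.33 (edgeR adjusted p = 0.0961), where 1.8% of transcripts were called higher. Trim28 was at 80.1, 51.0, 202 and 169 CPM in FT and at 88.3, 0, 58.0 and 59.5 CPM in Sham, and the groups overlapped. The 0 belongs to the library of 4586 counts, in which 3 counts would already be 654 CPM before scaling, and without its pair the call was lost (edgeR adjusted p = 0.365). Setdb1 in Nts was at 18.1, 19.4, 93.1 and 89.1 CPM in FT against 17.8, 0, 57.6 and 55.5 CPM in Sham, with a log2FC of 0.47 ± 0.23 (edgeR adjusted p = 0.347).

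Outside the called regions, both genes were higher in FT in every pair in BNST, as they were in NAcC, PVN, CMA, HB, venDG and PAG. BNST is given as an example. Trim28 was at 131, 115, 259.8 and 233 CPM in FT and at 84.5, 59.7, 114 and 87.8 CPM in Sham, with no overlap. Setdb1 was at 33.8, 39.4, 201 and 175 CPM in FT and at 15.3, 26.8, 45.5 and 60.1 CPM in Sham, higher in FT in 4 of 4 pairs although the groups overlapped. The log2FC was 1.08 ± 0.21 for Trim28 (edgeR adjusted p = 0.304) and 1.404 ± 0.26 for Setdb1 (edgeR adjusted p = 0.292).

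In BLA, Trim28 was higher in FT in 4 of 4 pairs and Setdb1 in 2 of 4. The same numbers of pairs were found in NAcSh, LS, MS, LH, dorDG and raphe. Trim28 was at 154, 109, 280.1 and 303 CPM in FT and at 98.5, 60.8, 90.0 and 90.1 CPM in Sham, without overlap and with a log2FC of 1.22 ± 0.22 (edgeR adjusted p = 0.234). Setdb1 was at 12.5, 22.5, 324 and 254 CPM in FT and at 36.0, 31.6, 55.3 and 119 CPM in Sham, so that the 2 lowest and the 2 highest of the 8 samples were all FT. Its log2FC of 0.45 ± 0.60 (edgeR adjusted p = 0.757) averages over these.

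The dentate gyrus, a site of neuron birth in the adult brain, held the highest Setdb1 values of all. In dorDG, Setdb1 was at 17.3, 21.9, 707 and 429.6 CPM in FT replicates 1, 3, 4 and 5 and at 27.3, 27.9, 79.4 and 221 CPM in Sham, with a log2FC of 0.75 ± 0.54 (edgeR adjusted p = 0.578). In venDG it was at 17.8, 27.2, 393 and 359 CPM in FT and at 13.4, 17.4, 47.3 and 158 CPM in Sham, higher in FT in 4 of 4 pairs (log2FC 1.38 ± 0.40, edgeR adjusted p = 0.350). Trim28 had a log2FC of 0.96 ± 0.24 in dorDG (edgeR adjusted p = 0.238) and 1.00 ± 0.24 in venDG (edgeR adjusted p = 0.294) and was higher in FT in every pair of both.

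At the low end for Trim28, InsularC had 64.0, 72.0, 311 and 148 CPM in FT and 84.5, 72.8, 88.6 and 155 CPM in Sham. FT was higher in 1 of 4 pairs, that of replicate 4. In PLC a single FT sample, replicate 4 with 556 CPM, lay far above the other 3, which ran from 81.7 to 151 CPM. In NAcC, by contrast, the FT samples were close together at 172, 146, 174 and 164 CPM, above Sham at 110.3, 74.2, 112 and 116 CPM (log2FC 0.71 ± 0.24, edgeR adjusted p = 0.203).

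The fits of replicates 4 and 5 alone and of replicates 1 and 3 alone, chosen after the values had been seen, were also made by region. In replicates 4 and 5 edgeR called Setdb1 higher in 20 of 25 regions and Trim28 in 18, where it called 6.32% of all tests higher and 6.54% lower. In replicates 1 and 3 it called Trim28 higher in 12 of 22 regions, and Setdb1 higher in BNST and lower in BLA, where it called 9.14% of all tests higher and 9.84% lower. Setdb1 log2FC values turned below 0 in 12 of 22 regions in replicates 1 and 3. With replicate 4 left out, neither gene was called in any of the 23 regions that could be fitted, and the same held with replicate 5 left out, when 0.04% and 0.0612% of all tests were called higher and 0.0325% and 0.0843% lower. With replicate 1 left out Trim28 was called higher in 4 regions (mPoA, LH, Arc and Nts) and Setdb1 in 4 (ILC, mPoA, Arc and Nts), where 1.51% of all tests were called higher and 1.6% lower. With replicate 3 left out they were called higher in 3 each, where 1.09% were called higher and 1.07% lower. Without the replicate block neither gene was called in any region, and 0.000299% of all tests were called higher and 0% lower.

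Whether the response differed between regions was tested in a joint edgeR fit that blocked on every combination of region and replicate number. The quasi-likelihood F test over the region-by-treatment terms gave an adjusted p of 1 for Trim28 (unadjusted p = 0.856) and 1 for Setdb1 (unadjusted p = 0.973), and 0.00578% of 17294 transcripts passed at 0.1. A larger response of either gene in the called regions than elsewhere was therefore not shown. The edgeR fit used a common dispersion, a single setting of the spread of counts, for all transcripts, estimated from 500 of them. Since almost no transcript passed, this result does not show that the responses were equal. In replicates 1 and 3 alone the adjusted p was 0.00605 for Trim28 and 0.0221 for Setdb1, in a fit in which 46.9% of 15650 transcripts passed. With no filter on low counts it was 1 for Trim28 and 0.0366 for Setdb1, with 6.74% of 27147 transcripts passing.

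The level of Trim28 in Sham samples differed between regions, as did that of 75.6% of transcripts, and was lowest in VTA, raphe and Nts. Ordered by level relative to the other regions of the same replicate number, and without libraries under 1000000 counts, the highest were dorDG with a mean of 116 ± 27.6 CPM (SD, n = 4), CMA with 114 ± 26.1, LS with 106 ± 18.5, ILC with 116 ± 35.8 (n = 3), venDG with 104 ± 26.4 and NAcC with 103 ± 19.4. After them came InsularC (100.1 ± 36.9), NAcSh (96.5 ± 30.8), CGC (106 ± 59.7, n = 3), mPoA (92.5 ± 17.01), PLC (86.8 ± 18.9), MDT (86.6 ± 18.0), BNST (86.4 ± 22.04), HB (84.6 ± 11.3), PVN (87.7 ± 32.0), MS (87.2 ± 30.3), BLA (84.9 ± 16.5), PAG (79.8 ± 7.54) and Arc (86.6 ± 5.69, n = 2). The lowest were LC (74.8 ± 17.7), VMH (73.9 ± 13.7), LH (70.5 ± 12.7), Nts (68.6 ± 17.1, n = 3), raphe (62.8 ± 13.1) and VTA (60.6 ± 15.6).

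No neighbours in this order, over its 24 steps, differed by more than their pooled SD, and the largest step was 0.16 on the log2 scale. The region terms together passed edgeR's quasi-likelihood F test (adjusted p = 0.00361), as did 75.6% of 16977 transcripts. For both genes, the Sham tests given here that hold replicate 3 kept the 2 libraries under 1000000 counts, which the order of regions left out. Of 10 anatomical groups of regions, Trim28 differed from the other regions in 3 and Setdb1 in 2 by the DEG rule, against 28% of all such tests. For Trim28 the dentate gyrus was higher by 0.35 ± 0.11 on the log2 scale (edgeR adjusted p = 0.00876), as for 16.9% of transcripts. The midbrain differed by -0.33 ± 0.12 (edgeR adjusted p = 0.0459) and the hindbrain and raphe by -0.42 ± 0.10 (edgeR adjusted p = 0.000546), both lower, as for 8.12% and 22.4% of transcripts. The midbrain difference was -0.37 ± 0.15 in replicates 1 and 3 alone (edgeR adjusted p = 0.0990), called lower with 8.15% of transcripts, -0.24 ± 0.14 in replicates 4 and 5 alone (edgeR adjusted p = 0.257), and 0.040 ± 0.15 in FT samples (edgeR adjusted p = 0.900). In replicates 1 and 3 alone the dentate gyrus was higher by 0.39 ± 0.13 (edgeR adjusted p = 0.0315) and in replicates 4 and 5 alone by 0.35 ± 0.13 (edgeR adjusted p = 0.0324), as for 18.6% and 19.6% of transcripts. By contrast, the hindbrain and raphe differed by -0.10 ± 0.13 (edgeR adjusted p = 0.604) and -0.66 ± 0.12 (edgeR adjusted p = 4.21e-05), the latter called lower with 20.5% of transcripts. With replicate 5 left out, the F test over regions gave an adjusted p of 0.103.

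For Setdb1 the order by relative level began with dorDG at 89.0 ± 91.5 CPM (SD, n = 4), BLA at 60.4 ± 40.1, CMA at 61.9 ± 54.6, Arc at 76.5 ± 28.7 (n = 2), CGC at 58.6 ± 42.6 (n = 3) and NAcSh at 49.5 ± 33.0. The middle held InsularC (51.2 ± 45.0), NAcC (55.2 ± 53.9), mPoA (41.1 ± 15.7), MS (41.6 ± 25.8), venDG (58.9 ± 67.5), LS (41.6 ± 25.3), VMH (41.2 ± 26.8), HB (40.6 ± 28.5), ILC (54.6 ± 51.5, n = 3), PLC (42.9 ± 37.8), LH (35.6 ± 17.6), Nts (43.6 ± 22.4, n = 3), BNST (36.9 ± 19.8), PAG (39.5 ± 30.3) and raphe (33.3 ± 15.2). It ended with MDT (31.2 ± 23.4), PVN (31.2 ± 23.0), LC (32.1 ± 23.0) and VTA (32.7 ± 26.7). The SD was at times above the mean, since each holds both the low and the high replicate numbers.

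All 24 neighbouring steps were again within the pooled SD. The F test over regions gave an edgeR adjusted p of 0.0817 in all Sham samples, 0.0384 in replicates 1 and 3 alone and 0.164 in replicates 4 and 5 alone, where 75.6%, 81.8% and 68.2% of transcripts passed. The dentate gyrus was higher by 0.48 ± 0.16 on the log2 scale (edgeR adjusted p = 0.0150) and the amygdala by 0.44 ± 0.16 (edgeR adjusted p = 0.0450), as for 16.9% and 10.9% of transcripts. The dentate gyrus difference was 0.90 ± 0.22 in replicates 4 and 5 alone (edgeR adjusted p = 0.00183) and -0.088 ± 0.20 in replicates 1 and 3 alone (edgeR adjusted p = 0.841). That of the amygdala was 0.60 ± 0.23 (edgeR adjusted p = 0.0531), called higher with 15.5% of transcripts, and 0.31 ± 0.18 (edgeR adjusted p = 0.356). In replicates 1 and 3 alone Setdb1 was instead lower in the midbrain, by -0.64 ± 0.23 (edgeR adjusted p = 0.0555), and in the hindbrain and raphe, by -0.39 ± 0.18 (edgeR adjusted p = 0.0958), as for 8.15% and 22% of transcripts. With DESeq2 in all Sham samples the amygdala difference of Setdb1 was 0.42 ± 0.19 (DESeq2 adjusted p = 0.102), no longer called, and the hindbrain and raphe were called lower, by -0.37 ± 0.16 (DESeq2 adjusted p = 0.0567). The rank order of regions was related only in part between these replicate numbers, with r = 0.47 and rho = 0.42 for Trim28 and r = 0.21 and rho = 0.16 for Setdb1 over 21 regions, given as a description.

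**Figure D4:**
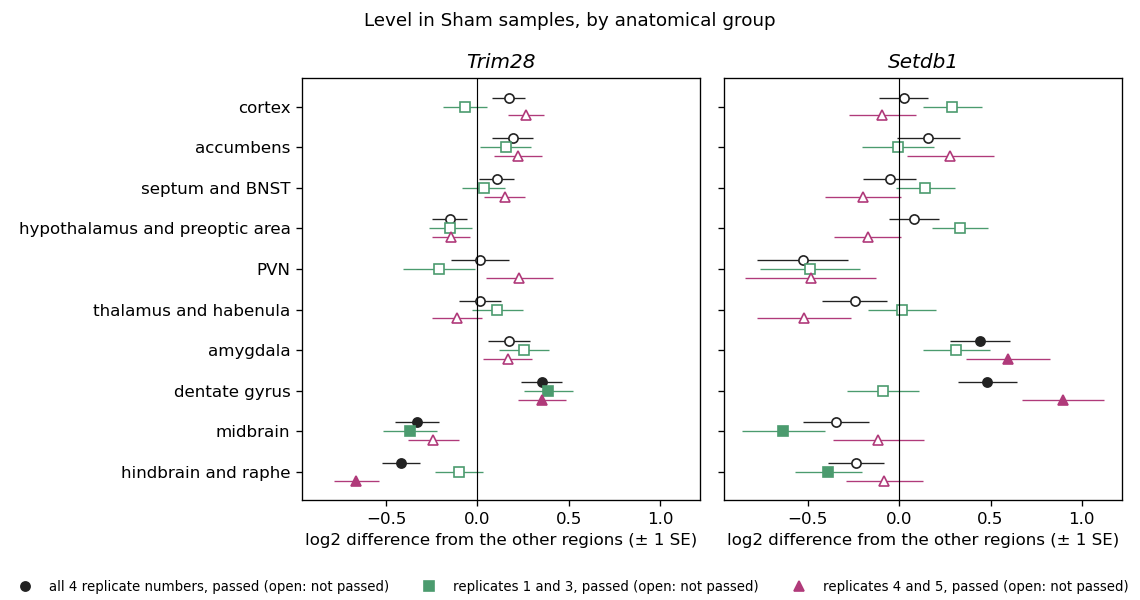
Difference in level between each of 10 anatomical groups of regions and all other regions in Sham samples, on the log2 scale from edgeR with bars of 1 standard error, for Trim28 (left) and Setdb1 (right). Filled symbols passed the DEG rule, and colours and shapes separate the fit of all replicate numbers from those of replicates 1 and 3 and of 4 and 5. The dentate gyrus is higher for Trim28 in all 3 fits, and for Setdb1 in the fits that hold replicates 4 and 5.

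In FT samples the dentate gyrus was higher than the other regions by 0.36 ± 0.15 for Trim28 (edgeR adjusted p = 0.0449) and by 1.03 ± 0.17 for Setdb1 (edgeR adjusted p = 8.59e-07), as for 18% of transcripts. The hindbrain and raphe differed by -0.52 ± 0.13 for Trim28 (edgeR adjusted p = 0.000658) and by -0.53 ± 0.17 for Setdb1 (edgeR adjusted p = 0.00756), both lower, as for 21.2%. The amygdala was higher for Setdb1 by 0.54 ± 0.18 (edgeR adjusted p = 0.0247), as for 11.2%, and the F test over regions in FT gave adjusted p-values of 0.0147 for Trim28 and 0.000109 for Setdb1, with 80.4% of transcripts passing. By region, relative FT levels of Trim28 were highest in mPoA (350 ± 84.9 CPM, n = 2), dorDG (258 ± 154), PAG (262 ± 219.9), CMA (204 ± 29.6) and venDG (207 ± 70.4) and lowest in InsularC (149 ± 115), LC (147 ± 106) and Nts (125 ± 71.4). The other 17 regions lay between 136 and 223 CPM. Those of Setdb1 were highest in dorDG (294 ± 336), venDG (199 ± 205), CMA (168 ± 167), BNST (112 ± 88.1) and mPoA (206 ± 26.6, n = 2) and lowest in raphe (55.6 ± 46.4), LH (42.9 ± 25.7) and VTA (35.8 ± 21.6). The other 17 lay between 51.0 and 153 CPM. For both genes the mPoA mean is of replicates 4 and 5 alone and is not directly comparable with the other means.

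The named transcripts whose Sham level over the 25 regions was most like that of Trim28, by Pearson's r of mean log2 CPM, were Fbxw4 (0.96), Eif4a1 (0.96), Elavl1 (0.95), Tceb3 (0.95) and Rnf10 (0.94). Those nearest to Setdb1 were Wdr3 (0.93), MAU2 (0.93), Wbscr16 (0.92), Gtf2h3 (0.92) and Ppie (0.91). Without the libraries under 1000000 counts the 5 nearest were different genes for both, CAMK2A (0.88), Chd3 (0.86), Ddn (0.86), Camkv (0.85) and Abl2 (0.85) for Trim28 and Hpca (0.82), Tef (0.80), Ptbp2 (0.79), Zbtb1 (0.79) and Lrrtm4 (0.78) for Setdb1. The first set of names therefore depended on the 2 shallow libraries.

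By the FT to Sham ratio over pairs, the nearest to Trim28 were Gle1 (0.92), Cd320 (0.91), Tmem55b (0.91), Desi1 (0.91) and Ahcy (0.91) over 95 pairs, and Tmem55b (0.83), Gle1 (0.81), Cdk4 (0.81), Cenpv (0.81) and Cd320 (0.80) over the 93 pairs without shallow libraries. The nearest to Setdb1 were Myo19 (0.91), MAU2 (0.88), Golm1 (0.87), Gpld1 (0.86) and Trub1 (0.86) over 95 pairs, and Ppip5k1 (0.87), Myo19 (0.85), Wdr83 (0.84), ANKRD10 (0.84) and Adck4 (0.82) over 93. Among 1844 other named transcripts, Setdb1 ranked 166th by likeness to Trim28 over the 93 pairs and Trim28 ranked 172nd by likeness to Setdb1, both at r = 0.56. These pairs share libraries and replicate numbers, and the values are descriptions.

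Genes known to act with TRIM28 and SETDB1 were called in both directions. Those with an identifier are among the transcripts that the study called in these samples, of which 48.5% were called higher and 32.8% lower in at least 1 region, beside 14.3% and 12.9% of all transcripts tested. Of 21 listed genes of H3K9 methylation and HP1, 6 had an identifier, of which 4 were called higher and 2 lower in at least 1 region. The HP1 gene Cbx3 was higher in 4 regions (mPoA, raphe, Arc and Nts) with a median log2FC over regions of 0.38, and Morc2, an ATPase that works with the HUSH silencing complex, was higher in 2 (mPoA and Arc) with a median of 0.71. Ehmt2, which with its partner Wiz writes dimethylated H3K9, was lower in 3 regions (mPoA, Arc and Nts) with a median of -0.13, and Wiz in 3 (mPoA, raphe and Arc) with a median of -0.55. Over this list 9 of 150 tests were called higher and 6 lower, beside 1.01% and 0.913% of all tests and 3.67% and 2.68% of those of named transcripts.

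Of 18 listed NuRD and corepressor genes 4 had an identifier. The histone chaperone Rbbp4 was called higher in 2 regions (median log2FC 0.68), and the remodeller Chd3, which binds SUMO-modified TRIM28, was lower in 2 (median -0.58). Among 8 listed SUMO genes, Sumo3 was higher in 2 regions (median 0.50). Of the 3 other TRIM genes, Trim36 was higher in 3 regions (median 0.52) and Trim3 in 1 (median 0.49), both ubiquitin ligases. Over these lists together 11 of 225 tests were called higher (4.89%) and 4 lower (1.78%). For all named transcripts 3.67% of tests were called higher and 2.68% lower.

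Zinc finger genes named Zfp, among which many but not all encode KRAB proteins, split between directions. Of 31, 11 were called higher and 14 lower in at least 1 region, and the median log2FC over all their tests was -0.21, beside 0.0085 for all transcripts and 0.18 for named ones. Of 775 tests, 26 were called higher (3.35%) and 28 lower (3.61%). Zfp664 was lower in 4 regions (median -1.23) and Zfp483 in 4 (median -0.94), while Zfp367 was higher in 4 (median 0.55) and Zfp68 in 4 (median 0.30). All 3 imprinted genes with an identifier, of 17 listed, were called higher in at least 1 region, as were 48.5% of named transcripts. Ube3a was called in mPoA, raphe and Arc (median 0.52), and Ndn (median 0.48) and Snurf (median 0.36) in Arc alone. In Arc 13.7% of transcripts were called higher. This makes 5 of 75 tests called higher (6.67%), beside 1.01% of all tests and 3.67% of those of named transcripts. None of 10 listed H3K9 demethylases had an identifier.

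Some of these genes were also read by replicate number. They are named because edgeR called them, and Morc2 and Rbbp4 were called in mPoA and Arc alone. Only replicates 4 and 5 form pairs in those regions. Larger ratios in these replicate numbers can therefore follow from how the genes were picked, and the values are a description only. Mean paired log2 ratios in replicates 1, 3, 4 and 5 were 0.0013, 0.18, 1.23 and 1.00 for Morc2, and 0.039, 0.18, 0.87 and 1.72 for Rbbp4. Zfp664 had -0.72, 0.23, -1.74 and -1.86, and Wiz -0.087, 0.50, -0.90 and -1.33. Trim3 had positive ratios in all 4 (0.49, 0.73, 0.39 and 0.61). The replicate 3 values include the shallow pairs, with which the median over all transcripts was 0.23 in place of -0.028.

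**Figure D5:**
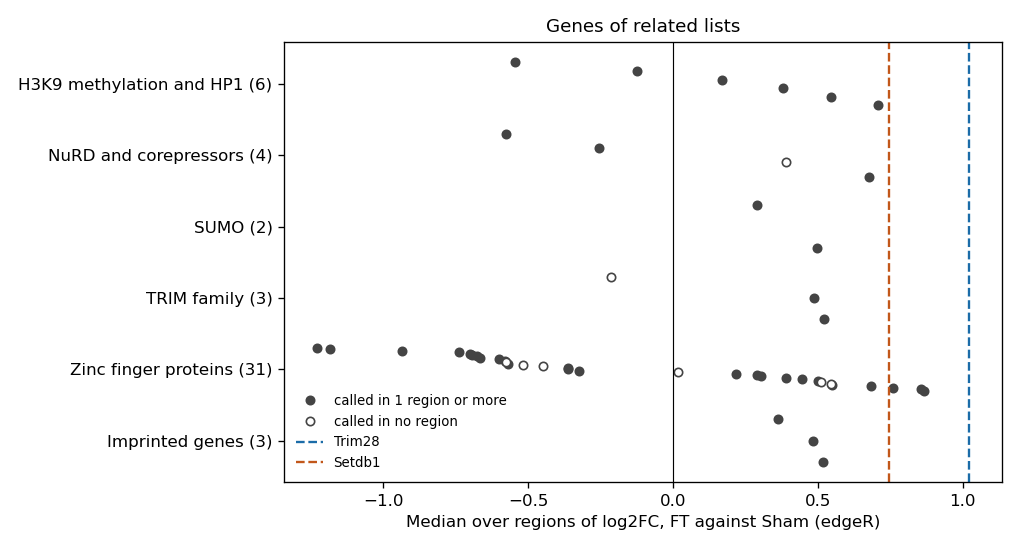
Median over 25 regions of the log2 fold change of FT against Sham from edgeR for each gene with an identifier in 6 lists, with the number of genes in brackets, filled where edgeR called the gene in at least 1 region. Dashed lines mark the medians of Trim28 (1.02) and Setdb1 (0.74), and the genes above the Setdb1 line, named for their values, are Zfp280b (0.87), Zfp644 (0.86) and Zfp703 (0.76).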

How the data were processed

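Tissue punches from 10 rats were pooled per sample, and libraries were made from 300 ng of total RNA and sequenced as paired 76-base reads. The authors deposited raw read counts per Ensembl transcript, 1 file per sample. Per the labels and the study's methods, reads were aligned to rn5 with STAR and counted with HTSeq after FastQC, with versions not given in the sources used here. Reads that HTSeq assigned to no transcript were kept out of totals and tests, and their median share ran from 21.9% to 47.5% over replicate numbers and treatments.

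Counts were analysed in R 4.3.3 with edgeR 4.0.16, using TMM scaling and filterByExpr with its defaults (minimum count 10, minimum total 15). Each region was fitted alone with the quasi-likelihood test and the replicate number as a block, as the study's methods treat replicate numbers as batches, and Benjamini-Hochberg adjustment ran over all transcripts of the region. A call needed an absolute fold of at least 1.25 and an adjusted p of at most 0.1. DESeq2 1.42.0 and limma 3.58.1 (voom) were alternatives. Joint edgeR fits tested the level between regions in Sham and the region-by-treatment terms, the latter with a common dispersion for all transcripts. Paired ratios used log2 CPM with a prior count of 2. Shallow libraries had under 1000000 counts. Figures and sequence searches used Python 3.11.15, numpy 2.4.6, pandas 2.3.3 and matplotlib 3.10.9. Libraries with identical counts numbered 0.

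FT and Sham samples of a replicate number were processed in parallel, according to the study's methods. Over 89 pairs in 23 regions with 3 or more pairs, the correlation of deviations from the group means had a median of 0.604 and ran from 0.169 to 0.825, above 0.1 in 89. The study's methods remove outlying CGC replicates, taken here to be the pair of replicate 1.

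The 2 genes and the gene lists were chosen with earlier results of these data known. Their names come from transcripts that the study called in these samples. From each list, up to 4 genes called by edgeR in at least 1 region are named, by number of regions and then by absolute median log2FC. Results for some list genes are not reported here. The 5 named transcripts with the highest Pearson r to each gene are given by Sham level and by paired ratio. The splits by replicate number and the region fits without shallow pairs were chosen after seeing the data. On simulated counts for the raphe, over 12866 transcripts, edgeR called 188 of 200 transcripts changed by 1.5 on the log2 scale and 15 unchanged transcripts, and DESeq2 called 171 and 14. The simulated counts had the same spread setting for all transcripts and no shift between replicate numbers. They therefore do not show how often the fits of the real samples find or miss a change.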

Additional observations from a re-analysis of the deposited data

Results flagged for a closer look

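In 92 groups of 4 samples, 5 held a sample whose gap to the others was past Dixon's 95% limit, and chance gives about 1 in 20 groups. For Trim28, Sham NAcC replicate 3 was low at 74.2 CPM against 110.3 to 116 CPM in the other samples, and FT PLC replicate 4 was high at 556 CPM against 81.7 to 151 CPM. For Setdb1, Sham replicate 5 was high in PLC at 99.4 CPM against 20.1 to 29.5 CPM, in InsularC at 119 CPM against 26.9 to 30.8 CPM and in MDT at 66.1 CPM against 16.4 to 22.3 CPM.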

How the results depend on the processing

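With no replicate block, edgeR called Trim28 in 0 regions and Setdb1 in 0, where it called 0.000299% of all tests higher and the unadjusted p of Trim28 in Nts was 0.0643. The Sham level test then gave an adjusted p of 0.418 for Trim28 and 1 for Setdb1, with 1 and 0 anatomical groups called. The mean Trim28 ratio of 1.04 without pairing had an exact permutation p of 0.0286, and the test of a response differing between regions stayed at 1 for both genes. Trim28 was called in 2 regions at an adjusted p of 0.05, in 18 by DESeq2, in 17 with no filter, in 18 in replicates 4 and 5 alone and in 12 in replicates 1 and 3 alone. Setdb1 was called in 9 by DESeq2, in 7 with no filter and in 20 in replicates 4 and 5 alone. Leaving out a replicate gave 0 to 4 regions for either gene, an adjusted p for level of 0.00286 to 0.103 for Trim28 and 0.0300 to 0.341 for Setdb1, and 1 to 3 and 0 to 2 anatomical groups. Replicates 4 and 5 alone gave 0.164 for the Setdb1 level. A response differing between regions was called in replicates 1 and 3 alone for Trim28 (edgeR adjusted p = 0.00605) and Setdb1 (0.0221), and for Setdb1 with no filter (0.0366). Leaving out a replicate, the log2FC of Trim28 in InsularC ran from -0.18 (without replicate 4) to 0.56, and in replicates 1 and 3 alone it was -0.20 in InsularC, -0.53 in LC and -0.16 in Nts. That of Setdb1 ran from -0.28 to 1.48 in CGC, from -0.47 to 1.04 in InsularC, from -0.23 to 0.43 in LH, from -0.29 to 1.10 in BLA and from -0.016 to 1.28 in dorDG, each lowest without replicate 4, and from -0.048 (without replicate 5) to 0.63 in raphe. In replicates 4 and 5 alone it was -0.031 in VTA. In replicates 1 and 3 alone it was -0.25 in PLC, -0.91 in InsularC, -0.23 in NAcSh, -0.83 in LS, -0.24 in MS, -0.12 in MDT, -0.35 in LH, -0.52 in VMH, -1.10 in BLA, -0.56 in dorDG, -0.50 in raphe and -0.0097 in Nts. The cause of these changes was not tested. RLE scaling turned no direction by region and moved 1 call, Trim28 in Nts (edgeR adjusted p = 0.101).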
